A study of Mus musculus with 6 samples.

Results

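The heat shock proteins and co-chaperones were read in 6 mouse hearts taken at 12 months of age. Of these, 3 came from wild-type animals and 3 from knockouts of Cenpf, the gene of the kinetochore protein CENP-F. The list held 39 genes, and a gene entered with the probe of highest mean among the probes annotated with its symbol and no other. By that rule 36 of the 39 genes had a probe, out of 19938 genes on the array, while Hspa1b, Hsp90ab1 and Hsf1 had none and were not analysed here. The mice received no treatment, and total RNA of each heart went onto 1 Affymetrix mouse gene array, 1 array per heart. The labels call the hearts biological replicates and give no strain, sex or allele, nor whether Cenpf was deleted in all cells. The question the study names is how knockout hearts differ from wild-type hearts.

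Heat shock proteins are molecular chaperones: they hold unfolded proteins, help them fold and pass those that cannot be rescued to degradation. The Hsp70 machine binds short stretches of its clients, J proteins deliver clients and start its ATP cycle, and exchange factors such as the BAG and Hsp110 proteins open it again. Under heat or other protein stress the transcription factor HSF1 binds heat shock elements, inverted repeats of the letters GAA, and raises the inducible members. In heart muscle the small heat shock proteins, among them Cryab and the Hspb genes, are abundant and bind the sarcomere and its intermediate filaments.

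The labels were first checked on the targeted gene. Cenpf read 8.75, 8.54 and 8.04 in wild-type hearts and 6.35, 6.10 and 6.68 in knockout hearts, on the log2 scale of all values given here. The groups lay far apart, and Cenpf fell by 2.07 on the log2 scale (limma, adjusted p = 0.0286). It did not pass when any 1 array other than wild-type replicate 3 was left out, where the adjusted p lay between 0.0689 and 0.198. The knockout mean of 6.37 lay at the background level of 6.35, so the transcript that remained was not resolved. Which exons were removed is not given, so whether the probe lies within them is not known. The tissue label was borne out by 9 of 9 cardiomyocyte markers, whose means over the 6 hearts lay between 12.47 and 13.94.

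No heat shock gene passed the test. Of 36 members 23 read higher and 13 lower in the knockout hearts, where 47.9% of the 21789 probes tested read higher. At an adjusted p under 0.05 in limma 0 members passed, against 0.0275% of all probes. At an unadjusted p under 0.05 there were 7 members, against 9.9% of all probes: 6 higher, against 4.66%, and 1 lower, against 5.24%. The median difference, knockout minus wild-type, was 0.06 over the members and -0.0082 over all probes tested. Hspa1a had the lowest p of all members (limma, adjusted p = 0.120) and Hspa1l the largest difference. The others at an unadjusted p under 0.05 were Bag2, Dnajb1, Hsph1 and Dnaja4, which read higher, and Hspb2, which read lower. The estimates were tight for most members: the 95% interval of the difference stayed within 2-fold either way for 34 of 36 and within 1.5-fold either way for 29. Those of Hspa1a and Hspa1l reached past 2-fold higher.

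**Figure D1:**
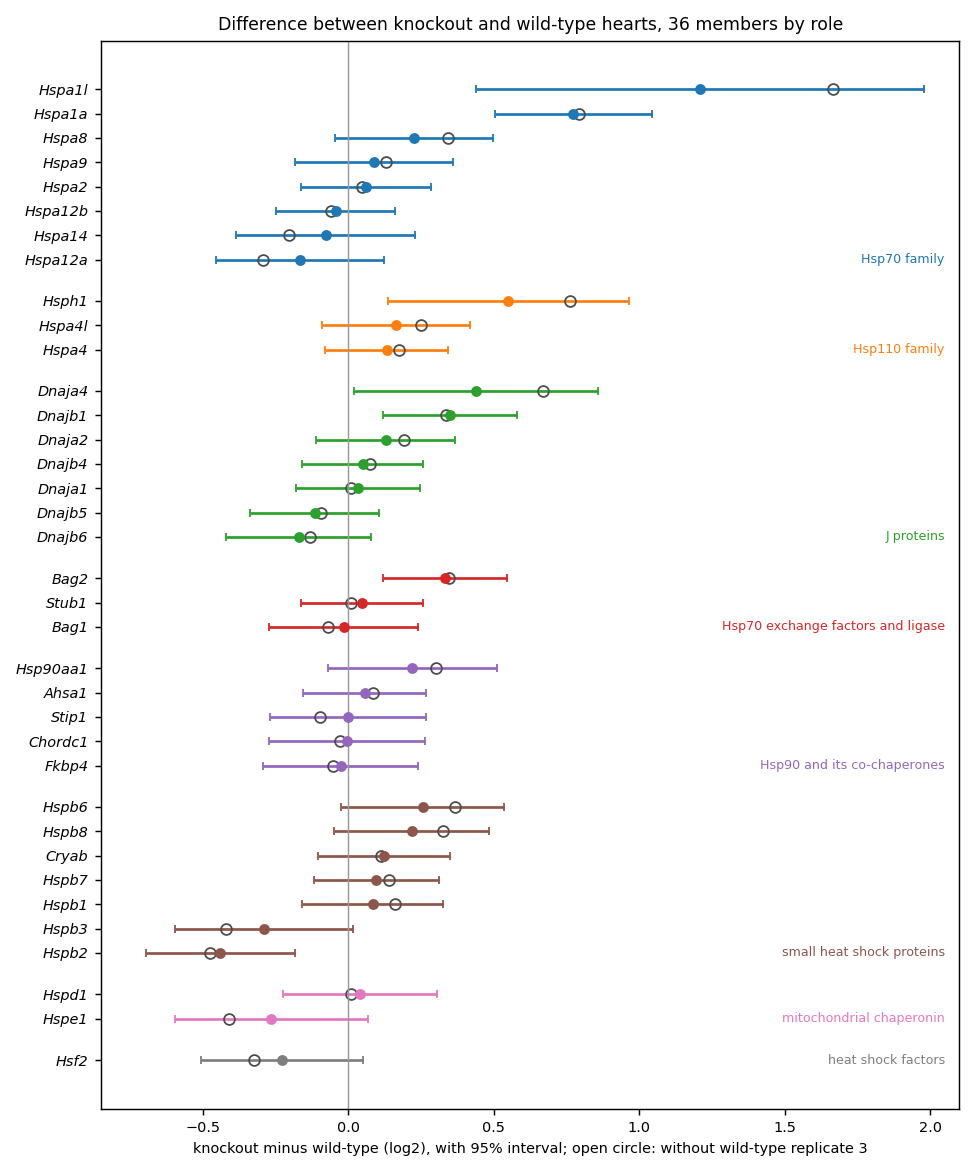
Difference between knockout and wild-type hearts (horizontal axis, log2) for the 36 members grouped by role (vertical axis), filled points with 95% intervals over 3 and 3 hearts, and open circles for the same difference without wild-type replicate 3. Hspa1l at 1.21 and Hspa1a at 0.77 lie farthest to the right and Hspb2 at -0.44 farthest to the left, and 7 intervals leave out 0.

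The genes of the largest differences sit together in the genome, and their upstream sequence is shown for that reason. Hspa1a and Hspa1l are transcribed away from each other from starts 547 bases apart on chromosome 17, and the start of Hspa1b, a near copy of Hspa1a, lies 12918 bases from that of Hspa1a. The 250 bases before each start are printed from RefSeq windows of the build GRCm38.p6, with those of Hsph1, the Hsp110 gene of the largest difference. Capitals mark a match to 2 units of a heat shock element: GAA and TTC in either order with any 2 bases between them. Such a match reads the same on both strands. Only exact letters were sought, so imperfect units are not marked.
Hspa1a, chr17:34972157-34972406, minus strand: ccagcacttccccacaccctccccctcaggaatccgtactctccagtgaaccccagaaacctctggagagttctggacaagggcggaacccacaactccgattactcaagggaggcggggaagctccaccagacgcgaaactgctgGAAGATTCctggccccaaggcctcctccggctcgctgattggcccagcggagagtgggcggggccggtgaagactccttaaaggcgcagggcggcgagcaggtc
Hspa1b, chr17:34959239-34959488, minus strand: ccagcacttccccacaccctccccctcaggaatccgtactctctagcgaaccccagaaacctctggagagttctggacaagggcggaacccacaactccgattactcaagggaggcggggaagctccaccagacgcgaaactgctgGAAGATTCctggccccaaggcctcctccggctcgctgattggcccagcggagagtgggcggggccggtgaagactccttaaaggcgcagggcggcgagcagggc
Hspa1l, chr17:34972453-34972702, plus strand: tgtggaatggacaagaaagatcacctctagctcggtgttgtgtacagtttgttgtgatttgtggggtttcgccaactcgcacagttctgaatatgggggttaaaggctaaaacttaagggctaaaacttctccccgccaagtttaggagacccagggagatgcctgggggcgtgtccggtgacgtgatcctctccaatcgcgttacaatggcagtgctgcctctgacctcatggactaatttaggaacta
Hsph1, chr5:149636337-149636586, minus strand: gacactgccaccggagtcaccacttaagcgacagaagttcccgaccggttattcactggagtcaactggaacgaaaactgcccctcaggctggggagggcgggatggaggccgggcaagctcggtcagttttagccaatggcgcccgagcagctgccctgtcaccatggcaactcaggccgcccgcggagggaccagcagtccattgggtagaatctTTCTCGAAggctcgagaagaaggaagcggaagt
Hspa1a and Hspa1b matched at 247 of 250 positions. Counted from 1 at the 5′ end, with the base of Hspa1a first, they differed by C44T, T47C and T249G. Both carry 1 match of 2 units, ending 96 bases before the start. Hspa1l held no match in these letters, and Hsph1 held 1 that ended 25 bases before its start. The longer match of Hsph1 described next lay after the start, outside the printed stretch.

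The same search was run over the windows of 300 bases, from 250 before to 50 after the start, that RefSeq's table gives for 32 of the 39 listed genes. Cryab, Hsf1, Hsp90aa1, Hsp90ab1, Hspa8, Hspa9 and Hspb2 had no entry. A match of 2 units was present for 16 of the 32 genes, or 50.0%, against 17.0% of all 27025 genes with a window. A match of 3 units, GAA, TTC and GAA or TTC, GAA and TTC with any 2 bases between units, was sought on both strands and contains the shorter motif. It was present for 5 of the 32, or 15.6%, against 0.662% of all genes. Those 5 were Chordc1, Dnajb6, Hspd1, Hspe1 and Hsph1. The matches of Hspd1 and Hspe1 are not separate. Their windows on chromosome 1, 55087883-55088182 and 55087898-55088197, overlap, and the same bases were counted for both genes. The differences of the 5 genes ran from -0.26 for Hspe1 to 0.55 for Hsph1, with a median of -0.0046. The 26 measured members without a 3-unit match had a median of 0.06. Among them were Hspa1a and Dnajb1, which are known as heat-inducible. The 2 medians therefore do not compare inducible with other genes. A match describes the letters of a window and says nothing of binding in these hearts.

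Hspa1a encodes the stress-inducible Hsp70. It read 7.49, 7.68 and 7.65 in wild-type hearts and 8.21, 8.54 and 8.38 in knockout hearts. All knockout values lay above all wild-type values, with a gap wider than the spread within either group. The means were 7.61 ± 0.11 and 8.38 ± 0.17 (SD, n = 3), a difference of 0.77 with a standard error of 0.12, or 1.71-fold. By limma the unadjusted p was 0.000148 and the adjusted p = 0.120. The difference stayed between 0.69 and 0.86 when each array was left out in turn, and over all alternatives the adjusted p ran from 0.0428 to 0.497. A further probe, annotated to both Hspa1a and Hspa1b and so outside the members, read 8.75, 8.55 and 9.05 against 9.17, 9.23 and 9.13. It differed by 0.39 with a standard error of 0.14 (limma over all 35556 probes, adjusted p = 0.551). Its groups too did not overlap, but wild-type replicate 3 came close to the knockout hearts. Since Hspa1a and Hspa1b are near copies, signal from one may be read by the other's probe.

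Hspa1l encodes an Hsp70 known from the testis, where it is made without heat. Its probe read 7.43, 7.54 and 8.86 in wild-type hearts and 9.26, 9.19 and 9.001 in knockout hearts. The groups did not overlap, but wild-type replicate 3 lay next to the knockout hearts and far from the other wild-type hearts. The means were 7.94 ± 0.79 and 9.15 ± 0.13 (SD, n = 3), and the difference of 1.21 had a standard error of 0.34, the widest of any member (limma, adjusted p = 0.391). Without wild-type replicate 3 the difference was 1.67 (standard error 0.12, limma adjusted p = 0.00350). Without wild-type replicate 1 it was 0.95 (limma, adjusted p = 0.661). Hspa1l and Hspa1a thus shared the higher level in knockout hearts, while wild-type replicate 3 stood with the wild-type group for Hspa1a and apart from it for Hspa1l.

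The other Hsp70 genes differed less. Hspa8, the constitutive Hsc70 that cells use at all times, read 13.02, 12.98 and 13.34 against 13.32, 13.32 and 13.38, a difference of 0.23 (limma, adjusted p = 0.558). Wild-type replicate 3 again lay within the knockout range, and the difference ran from 0.16 without wild-type replicate 2 to 0.34 without wild-type replicate 3. Hspa9, the mitochondrial Hsp70 mortalin, read 11.93, 11.92 and 12.04 against 11.83, 12.16 and 12.16, and its groups overlapped, with knockout replicate 1 lowest of all hearts. Hspa2, Hspa12a, Hspa12b and Hspa14 differed by 0.06, -0.17, -0.043 and -0.077. The values of Hspa12b did not overlap between groups, yet the gap was too small to set them apart (limma, adjusted p = 0.896).

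**Figure D2:**
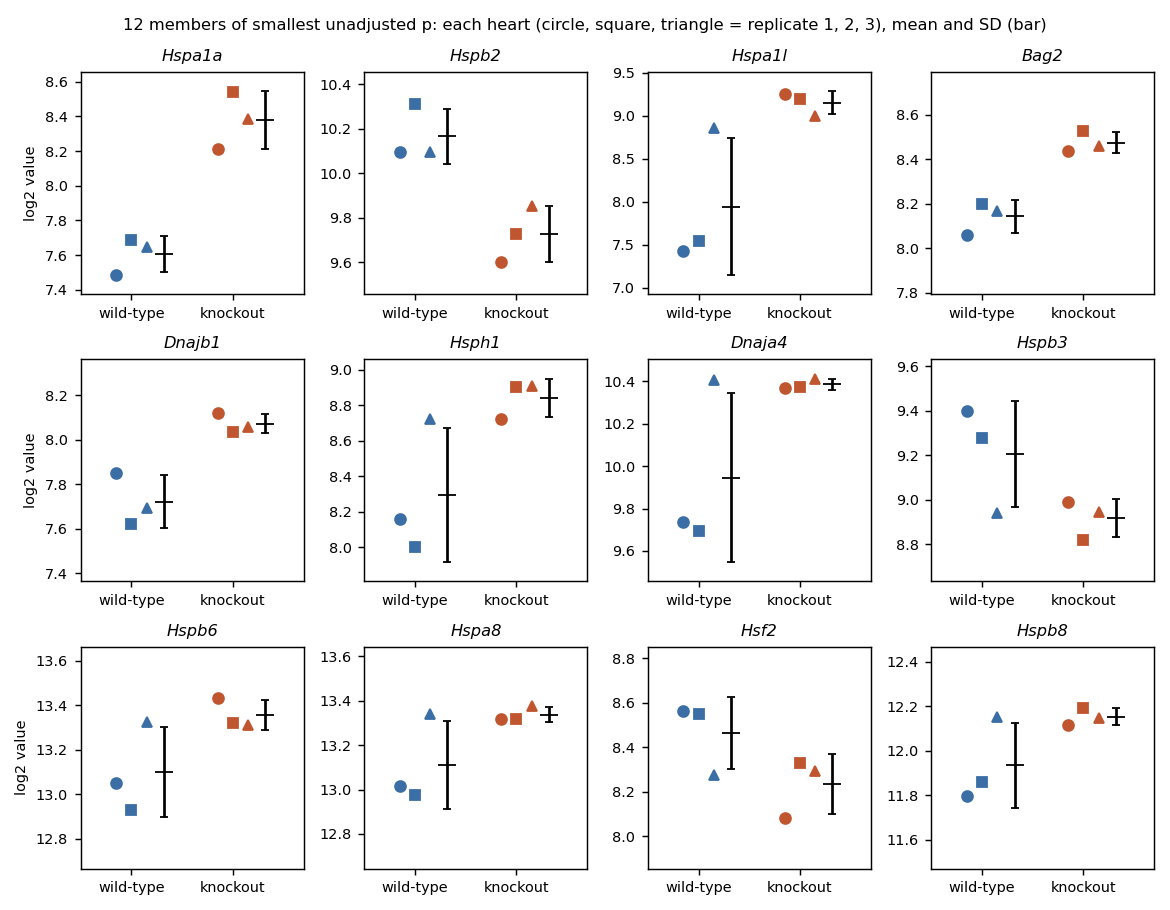
Values (vertical axes, log2, each panel with its own range) of the 12 members of smallest unadjusted p in each wild-type and knockout heart. The mean and SD of 3 hearts stand beside the points. Circles, squares and triangles are replicates 1, 2 and 3 of a group, and no label says that a number pairs hearts. For Hspa1a, Bag2, Dnajb1 and Hspb2 the wild-type hearts stand together, while for Hspa1l, Hsph1 and Dnaja4 the wild-type triangle, 8.86, 8.72 and 10.40, stands with the knockout hearts.

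The Hsp110 proteins, large relatives of Hsp70 that act as its exchange factors, read higher for 3 of 3 genes. Hsph1 is the heat-inducible one. It read 8.16, 8.001 and 8.72 in wild-type hearts and 8.72, 8.91 and 8.91 in knockout hearts, so that wild-type replicate 3 reached the lowest knockout heart. The difference was 0.55 (standard error 0.18, limma adjusted p = 0.444), and 0.76 without wild-type replicate 3 (limma, adjusted p = 0.0370). Without wild-type replicate 2 it was 0.40 (limma, adjusted p = 0.814). Hspa4l and Hspa4 differed by 0.16 and 0.13. For Hspa4 every knockout heart lay above every wild-type heart, at 10.94, 10.93 and 10.96 against 10.80, 10.74 and 10.89 (limma, adjusted p = 0.655).

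Among the J proteins, which bring clients to Hsp70, 5 of 7 read higher. Dnajb1, the inducible Hsp40 and partner of Hspa1a, read 7.85, 7.62 and 7.69 in wild-type hearts and 8.12, 8.04 and 8.06 in knockout hearts. Its groups did not overlap, and wild-type replicate 3 lay inside the wild-type range. The difference was 0.35 (standard error 0.10, limma adjusted p = 0.391). Dnaja4 read 9.74, 9.69 and 10.40 against 10.37, 10.37 and 10.41. Here the knockout hearts were nearly equal and wild-type replicate 3 lay among them, so that the difference of 0.44 (limma, adjusted p = 0.495) became 0.67 without that array (limma, adjusted p = 0.0321) and 0.31 without wild-type replicate 2 (limma, adjusted p = 0.851). Dnaja2, Dnajb4 and Dnaja1 differed by 0.13, 0.049 and 0.033, and Dnajb5 and Dnajb6 by -0.12 and -0.17. Dnajb6 was the 1 member near background, with a knockout mean of 6.34 under the level of 6.35.

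Among the exchange factors and the ligase that work with Hsp70, Bag2 had the largest difference. It encodes an exchange factor that inhibits the ubiquitin ligase CHIP. It read 8.06, 8.20 and 8.17 in wild-type hearts and 8.44, 8.53 and 8.46 in knockout hearts, with no overlap and SDs of 0.073 and 0.046. The difference was 0.33 (standard error 0.093, limma adjusted p = 0.391), and it stayed between 0.29 and 0.36 without any 1 array. Stub1, which encodes CHIP itself, read 9.89, 9.82 and 9.74 against 9.88, 9.84 and 9.87, and its groups overlapped, with a 95% interval of the difference from -0.16 to 0.26. Bag1 differed by -0.017.

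Hsp90 matures kinases, receptors and other clients with the help of co-chaperones. Hsp90aa1, its inducible form, read 10.46, 10.64 and 10.80 in wild-type hearts and 11.03, 10.75 and 10.78 in knockout hearts. Knockout replicate 1 was highest, the groups overlapped, and the difference was 0.22 (limma, adjusted p = 0.590). Leaving out knockout replicate 1 gave 0.13, as did leaving out wild-type replicate 1. The 4 measured co-chaperones differed little. Ahsa1, an activator of its ATPase, differed by 0.056, Chordc1 by -0.0046, Fkbp4 by -0.026 and Stip1, the adaptor that joins Hsp70 and Hsp90, by -0.00073. The 95% interval of Stip1, from -0.27 to 0.27, shows how large a difference these arrays could have missed there.

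The small heat shock proteins did not go one way: 5 of 7 read higher and 2 lower. Hspb2, the partner of Hspb3 in muscle, read 10.09, 10.31 and 10.10 in wild-type hearts and 9.60, 9.73 and 9.85 in knockout hearts. It was the 1 member lower at an unadjusted p under 0.05, with no overlap and a difference of -0.44, a standard error of 0.11 and 1.36-fold lower (limma, adjusted p = 0.368). Hspb3 read 9.40, 9.28 and 8.94 against 8.99, 8.82 and 8.94, a difference of -0.29 (limma, adjusted p = 0.525). Its wild-type replicate 3 lay within the knockout range, and without it the difference was -0.42 (limma, adjusted p = 0.134). Without wild-type replicate 1 it was -0.19 (limma, adjusted p = 0.802). Both partners thus read lower in the knockout hearts, and neither passed.

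Cryab, the alpha-B crystallin that guards desmin and other filaments, read 12.76, 12.64 and 12.67 against 12.86, 12.88 and 12.69. Its groups overlapped through knockout replicate 3, and the 95% interval of its difference ran from -0.11 to 0.35. Hspb6, known as Hsp20 and a target of protein kinase A in the heart, read 13.05, 12.93 and 13.33 against 13.43, 13.32 and 13.31, a difference of 0.25 (limma, adjusted p = 0.530). Hspb8, which works with Bag3 in selective autophagy, read 11.79, 11.86 and 12.15 against 12.12, 12.19 and 12.15, a difference of 0.22 (limma, adjusted p = 0.565). In both, wild-type replicate 3 lay within the knockout range. With 1 array left out, the difference ran from 0.17 to 0.37 for Hspb6 and from 0.15 to 0.33 for Hspb8. Hspb1, or Hsp25 in the mouse, read 11.64, 11.58 and 11.84 against 11.83, 11.72 and 11.76. Hspb7, the cardiovascular member, read 12.63, 12.58 and 12.74 against 12.79, 12.75 and 12.71. Their groups overlapped, with differences of 0.083 and 0.096.

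The mitochondrial chaperonin folds imported proteins in a chamber of Hspd1, the Hsp60, closed by a lid of Hspe1, the Hsp10. Hspd1 read 11.37, 11.26 and 11.22 in wild-type hearts and 11.12, 11.43 and 11.42 in knockout hearts, and its groups overlapped, with a difference of 0.041. Hspe1 read 11.69, 11.84 and 11.32 against 11.48, 11.28 and 11.30. Its wild-type replicates 1 and 2 were the highest hearts, and the difference was -0.26 (limma, adjusted p = 0.572). Leaving out wild-type replicate 2 gave -0.15, and leaving out wild-type replicate 3 gave -0.41. Hsf2, the measured heat shock factor, read 8.56, 8.55 and 8.28 against 8.08, 8.33 and 8.29, a difference of -0.23 (limma, adjusted p = 0.563) that was -0.15 without knockout replicate 1.

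**Figure D3:**
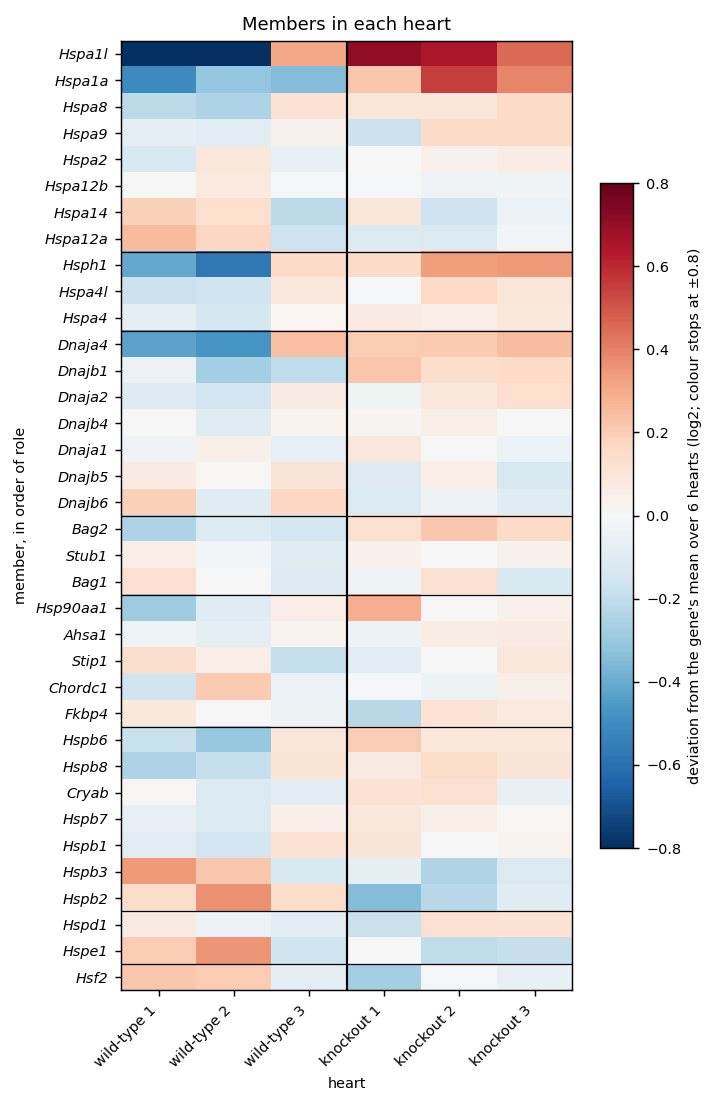
Deviation of each member (rows, in order of role) in each heart (columns) from the gene's mean over the 6 hearts, on the log2 scale, with red above and blue below the mean. The column of wild-type replicate 3 is redder than those of wild-type replicates 1 and 2 for Hspa1l, Hsph1 and Dnaja4, and it is as blue as theirs for Hspa1a.

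Many of these differences moved when wild-type replicate 3 was left out. That array lay nearer to the knockout mean than to the mean of the other wild-type hearts for 25 of 36 members, or 69.4%. It did so for 59.6% of all probes, so this was not particular to the members. For wild-type replicates 1 and 2 the same held for 10 and 8 members, or 27.8% and 22.2%, against 42.7% and 40.3% of all probes. Knockout replicates 1, 2 and 3 lay nearer to the wild-type mean for 12, 10 and 8 members, against 51.7%, 44.4% and 42.2% of all probes. Wild-type replicate 3 was not the only array to stand apart: limma's array weights were 0.54 for it and 0.53 for knockout replicate 1. Without wild-type replicate 3, Hspa1a, Hspa1l, Hsph1 and Dnaja4 rose at an adjusted p under 0.05 in limma. These were 4 members of 36, against 0.776% of all probes higher, 0.569% lower and 1.34% in all. At an unadjusted p under 0.05 there were then 10 members higher, against 7.26%, and 5 lower, against 8.59%, and 16 members higher and 7 lower did not overlap, against 15.8% and 18.3%. The fit without that array gave 293 calls over the whole table in place of 6, so these calls are a description and no separate support. Without any other array 0 members passed. Of the members at an unadjusted p under 0.05, Hspa1a, Bag2, Dnajb1 and Hspb2 had wild-type replicate 3 on the wild-type side.

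With all arrays, groups did not overlap for 7 members, against 14.8% of all probes. There were 5 on the higher side, Hspa1a, Hspa1l, Hspa4, Dnajb1 and Bag2, against 7.33% of all probes. On the lower side there were 2, Hspb2 and Hspa12b, against 7.47%. Members known from textbooks as induced through HSF1 numbered 18, of which 16 were measured, with 12 higher, 4 lower and a median difference of 0.07. The other 20 measured members had a median of 0.054, with 11 higher and 9 lower. The mean deviation of the 16 inducible genes from their own means was -0.09, -0.093 and -0.04 in wild-type and 0.046, 0.094 and 0.082 in knockout replicates 1, 2 and 3. Over all 36 members it was -0.07, -0.081 and -0.0083 against 0.03, 0.071 and 0.059, so the groups lay apart there too. For the 20 other members it was -0.054, -0.072 and 0.017 against 0.017, 0.052 and 0.04, with wild-type replicate 3 level with knockout replicate 1. The list was drawn up with earlier results of these arrays known, so this separation supports nothing by itself.

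The rule took the brightest probe of a gene, and for 6 genes with several probes this was not the probe at the gene's own place. In probe order, a probe of this array has neighbours on its own chromosome: the 30 members with 1 probe all lay among genes of their own chromosome, with at least 17 of 20 neighbours on it. For Hspa8, Hspb1, Hsp90aa1, Hspd1, Hspe1 and Dnaja1 the probe used lay among genes of another chromosome. Their probes at the gene's own chromosome gave 0.22 for Hsp90aa1, -0.27 for Hspe1 and 0.056 for Hspb1, against 0.22, -0.26 and 0.083 from the probes used. For Dnaja1 they gave 0.072 against 0.033 and for Hspd1 0.070 against 0.041, differences near 0 on either probe. The shift was widest for Hspa8. Its probe among genes of chromosome 9, where the gene lies, read 12.17, 12.31 and 12.70 in wild-type hearts and 13.29, 12.71 and 12.73 in knockout hearts. Knockout replicate 1 stood far above the rest and the groups met without overlap, with a difference of 0.52 and a standard error of 0.19 (limma, adjusted p = 0.468), against 0.23 from the probe used.

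**Figure D4:**
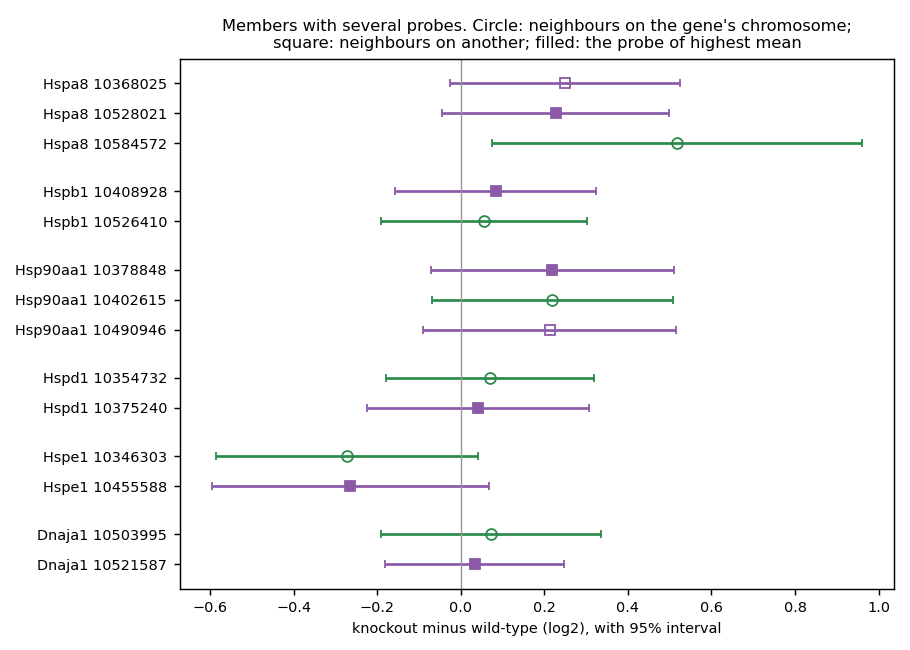
Difference between knockout and wild-type hearts (horizontal axis, log2, with 95% intervals) for each of the 14 probes of the 6 members with several probes (vertical axis, gene and probe number). The probes of a gene lie farthest apart for Hspa8, where the probe at the gene's own chromosome gave 0.52 and the others 0.25 and 0.23.

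Further chaperone genes outside the list gave 0 calls among 76 measured (limma), against 0.0275% of all probes. There were 43 higher, against 47.9% of all probes, 33 lower and a median difference of 0.036. At an unadjusted p under 0.05 there were 4 higher and 1 lower, against 4.66% and 5.24% of all probes, so that higher count was near the share over all probes. Without overlap there were 11 higher, against 7.33% of all probes, and 5 lower, against 7.47%. Bag3, the exchange factor that links Hsp70 and Hspb8 to autophagy, read 10.80, 10.71 and 11.23 against 11.21, 11.42 and 11.28, a difference of 0.39 (limma, adjusted p = 0.472). Sqstm1, the autophagy receptor p62, read 11.71, 11.69 and 12.22 against 12.24, 12.31 and 12.26, also a difference of 0.39, and was the 1 gene of these that passed without wild-type replicate 3. In both genes that array stood with the knockout hearts. Dnajb9, a J protein of the endoplasmic reticulum, differed by 0.29 and Pfdn1, a subunit of prefoldin, by -0.30. Prefoldin hands actin and tubulin chains to the TRiC chaperonin. Of its subunits 6 of 6 read lower, under each normalization too, with a median of -0.16. Only 1 of them did not overlap and 1 had an unadjusted p under 0.05 (limma), against 7.47% and 5.24% of all probes. TRiC itself had a median of 0.018 over 8 genes. The 4 genes listed for disaggregation and the proteasome shuttle, Sqstm1 among them, all read higher, with a median of 0.25. Of these, 2 had an unadjusted p under 0.05 (limma), against 4.66%. The endoplasmic reticulum chaperones Hspa5 and Hsp90b1 differed by 0.089 and 0.031, and Fkbp5, a co-chaperone of steroid receptors, by 0.017.

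Immediate early genes, which are switched on within minutes of a stimulus, read higher in the knockout hearts for 17 of 20 genes, against 47.9% of all probes. In limma 0 of them were called, against 0.0275%, and 12 had an unadjusted p under 0.05, against 9.9%. Their mean deviation from their own means was -0.32, -0.26 and -0.13 in wild-type replicates 1, 2 and 3, and 0.083, 0.38 and 0.25 in the knockout replicates. In these means, as in those of the inducible heat shock genes, every knockout heart lay above every wild-type heart. Gene by gene, 11 of the 20 immediate early genes did not overlap on the higher side and 0 on the lower. Of the 16 inducible heat shock genes these were 2 and 0, against 7.33% and 7.47% of all probes. The part of the immediate early genes in the result was not tested.

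Markers of other cells were read beside these values. The 1 measured erythrocyte marker of 4 deviated by -0.88, -0.48 and 0.043 in wild-type and 0.65, 0.35 and 0.32 in knockout hearts. The 3 measured adipocyte markers of 4, of which 1 lay above background, averaged 0.41, 0.26 and -0.068 against -0.13, -0.28 and -0.18. The 4 atrial markers averaged -0.23, -0.51 and 0.14 against 0.39, 0.087 and 0.12, with wild-type replicate 3 above 2 knockout hearts. The 6 smooth muscle and pericyte markers, of which 2 had an unadjusted p under 0.05 (limma), averaged 0.33, 0.15 and -0.21 against -0.034, -0.18 and -0.057. These 6 did not go one way: 3 read higher, the median difference was -0.0063, and 1 did not overlap on the higher side and 0 on the lower. In the averages of these 4 lists wild-type replicates 1 and 2 lay on one side of every knockout heart. Wild-type replicate 3 lay nearer to or among the knockout hearts. An average does not give the direction of each marker, and the part of these lists in the result was not tested. The 8 fibroblast markers averaged 0.12, 0.29 and -0.22 against 0.35, -0.33 and -0.21, and the 8 macrophage markers -0.30, 0.017 and 0.20 against 0.47, -0.29 and -0.099. Both averages were highest in knockout replicate 1 and overlapped between the groups. Gene by gene, 1 of the 8 fibroblast markers read higher, with a median difference of -0.13. Of the 8 macrophage markers 4 read higher, with a median of 0.038. In either list 0 markers had an unadjusted p under 0.05 (limma). The 9 cardiomyocyte markers averaged -0.0084, -0.091 and 0.046 against -0.11, 0.12 and 0.038, and overlapped too. In whole hearts, fewer cells of a type and less RNA per cell cannot be told apart.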

How the data were processed

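The deposited table holds log2 values for 35556 probes and 6 arrays, for which the submitters' processing notes name RMA and Partek 6.6. Settings and genome build: not given in the sources used here. RMA subtracts background, sets all arrays to a common distribution and combines probes into 1 value, which shrinks differences of dim genes. The medians of the arrays lay between 6.92 and 6.97, so the values were used as deposited. Names came from the platform annotation: 21789 had exactly 1 gene symbol, 1621 several and 12146 none. The 21789 were tested with limma 3.58.1 in R 4.3.3 (lmFit, eBayes, two-sided, Benjamini-Hochberg adjustment), knockout minus wild-type, with no pseudocount and no filter. The background level, 6.35, is the 95th percentile of the means of 1210 olfactory and vomeronasal receptor probes. An array has no depth as reads do; the number of arrays limits the precision.

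The members and the lists were chosen with earlier results of these data known. Values of every heart are given for 17 genes fixed by name, of which 14 were measured, and for the 12 members of smallest unadjusted p; Hspa4 and the second Hspa8 probe were added after their values were seen. The other chaperone genes named were Bag3, Hspa5, Hsp90b1 and Fkbp5 and the 4 of smallest p. Which of their families to describe was not fixed beforehand. The place of a probe was read from its 20 nearest neighbours in probe number, whose chromosomes came from a RefSeq table of GRCm38.p6. Promoter windows came from RefSeq for the same build. The gene test was tested on simulated data. Alternatives were 3 normalizations, a filter at the background level, testing every probe, averaging the probes of each gene, limma's trend and robust options, array weights, the replicate block, each array left out, and, chosen after seeing the data, the probe at the gene's own chromosome. Figures were drawn with matplotlib 3.10.9.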

Additional observations from a re-analysis of the deposited data

How the results depend on the processing

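The count of 0 members called held under all alternatives other than array weights, which gave 1 (Hspa1a), and leaving out wild-type replicate 3. Those 2 fits gave 33 and 293 calls over the whole table, in place of 6. Over the arrays left out in turn the count of members called ran from 0 to 4. With array weights 10 members were higher and 3 lower at an unadjusted p under 0.05, in place of 6 and 1. The trend and robust variance gave 9 higher and 2 lower, and cyclic loess normalization 7 higher and 2 lower. Subtracting array medians, averaging the probes of each gene and the probe at the gene's own chromosome each gave 7 higher and 1 lower. The shares over all probes were not counted for these fits. The trend and robust variance gave 22 calls over the whole table. Over the arrays left out, members at an unadjusted p under 0.05 ran from 4 to 10 higher and from 1 to 5 lower. The 10 and 5 came without wild-type replicate 3, against 7.26% and 8.59% of all probes. Members without overlap numbered 11 higher and 1 lower with array medians subtracted, where the median over all probes moved from -0.0082 to 0.013. The share over all probes was not counted there. Over the arrays left out, members without overlap ran from 5 to 16 higher and from 2 to 7 lower. The 16 and 7 came without wild-type replicate 3. The shares over all probes were then 15.8% higher and 18.3% lower, against 7.33% and 7.47% with all arrays. The median difference stayed between 0.049 and 0.081 under every alternative. The other normalizations gave 24 to 26 members higher in place of 23. Cenpf, at -2.07, had an adjusted p of 0.281 with all probes as the tested family, and its difference ran from -2.27 to -1.92 over the arrays left out. The other chaperone genes had 0 to 1 calls over those fits. Hspd1 read -0.012 without knockout replicate 2 and -0.0065 without knockout replicate 3, and up to 0.14 over the arrays left out. Among members given by their difference alone, Hspa14, Dnaja1, Stip1, Chordc1, Bag1 and Fkbp4 also changed sign when 1 array was left out. The cause of these shifts was not tested.

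No label says whether a replicate number pairs a wild-type with a knockout heart. The deviations of hearts with the same number correlated at -0.11, -0.16 and -0.0031. Hearts with different numbers were not set beside these, so the correlations cannot decide whether the numbers mark pairs. With the replicate block 0 members passed, 6 were higher and 1 lower at an unadjusted p under 0.05, and the median stayed at 0.059, so no call was altered.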
